A study of Mus musculus with 12 samples.

Results

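The branched-chain amino acids leucine, isoleucine and valine are broken down in mitochondria, and adipose tissue is a known site of this pathway. A transaminase first turns them into keto acids. The branched-chain keto acid dehydrogenase complex then commits the carbon to breakdown, in a step that a dedicated kinase switches off, and separate enzymes finish each branch. Mature adipocytes use the resulting acetyl-CoA and propionyl-CoA for energy and for lipid synthesis.

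The 10 genes described here were found by symbol in a table of 33200 genes from the inguinal fat pad (iWAT), which lies under the skin, and all 10 passed the filter on low counts. In pathway order they are Bcat2, Bckdha, Bckdhb, Dbt, the kinase gene Bckdk, Ivd, Mccc1, Hibadh, Pcca and Pccb. The groups were C57BL/6 wild-type mice and mice with a global knockout (KO) of Nrep made by CRISPR/Cas editing, 3 biological replicates each. All were 16 weeks old, on a standard maintenance diet, under specific-pathogen-free conditions. Every tissue of the KO animals carries the deletion, and the number of founder lines is not stated. Library totals lay between 17970451 and 20369345 estimated counts. Nrep itself had 1300 to 1640 counts in the wild-type libraries and 2 to 5 in the KO libraries. Levels are given as CPM, counts scaled to a common library size, after TMM scaling, which corrects for library composition. In the order replicate 1, 2 and 3, Fabp4, an adipocyte fatty acid carrier, had 4780, 4085 and 6146 CPM in wild type and 10601, 6533 and 10906 in KO. The fat label thus matches an abundant adipocyte transcript in all 6 libraries.

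All 10 genes had higher mean levels in the KO fat, by 1.46-fold for Dbt to 1.80-fold for Bckdhb, but none was called at the 0.05 threshold on adjusted p. The edgeR quasi-likelihood test over all genes called 0 of the 10, and 1.03% of the 16656 genes tested. The median log2 fold change of the 10 was 0.68, against -0.06 over all genes tested. In 9 of the 10, each KO library lay above each wild-type library, a pattern seen in 15.2% of all genes tested. An unadjusted p under 0.05 with a higher level in KO was reached by 9 of the 10, and by 12.8% of all genes. DESeq2 called 9 of the 10 higher in KO (7.34% of all genes called higher) and limma-voom called 0 (0.0961% called in either direction). Without KO replicate 2, the lowest KO library for all 10, edgeR called all 10 higher, when it also called 14.5% of all genes higher. Leaving out any other single library gave 0 calls among the 10. With all libraries, edgeR called 9 of the 10 higher with no filter on low counts (2.8% of genes called higher). At an adjusted p of 0.10 it called 7 (5.52%).

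**Figure D1:**
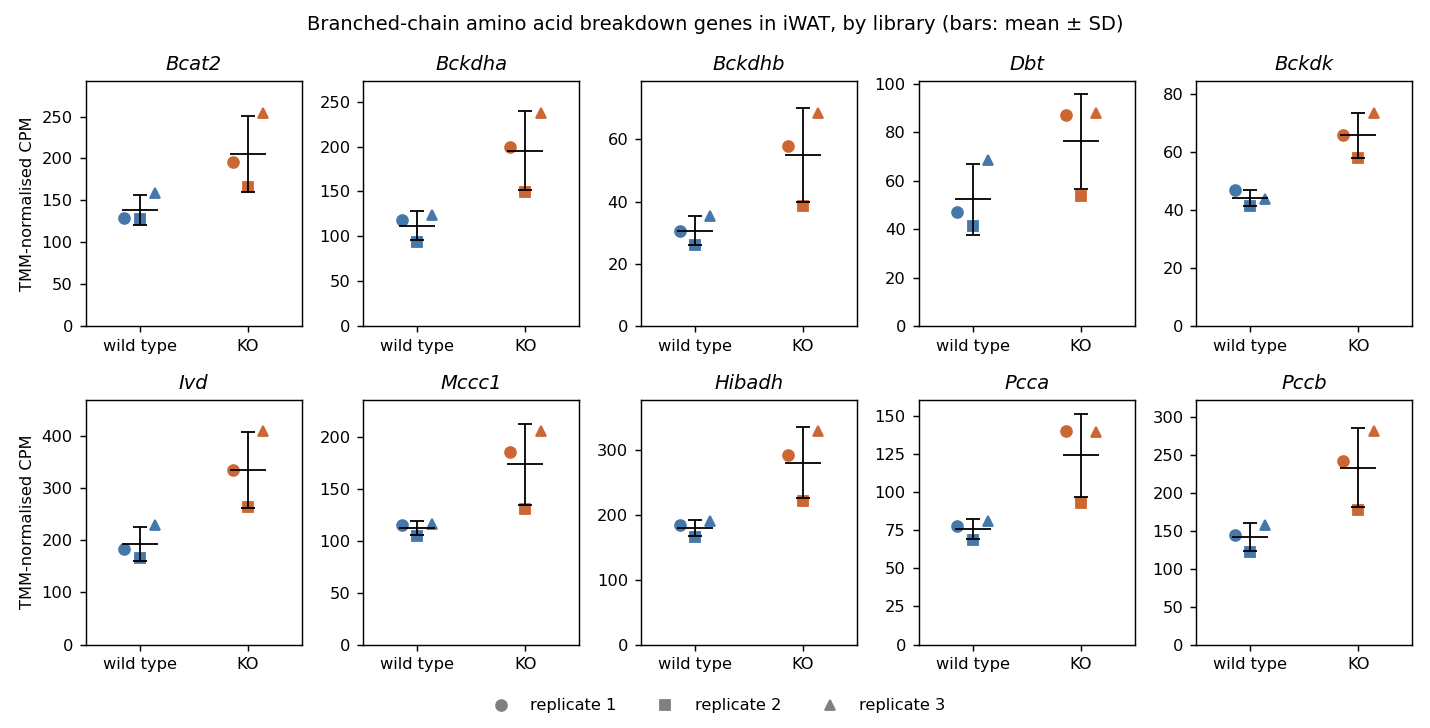
TMM-normalised CPM of each of the 10 genes (vertical axes, starting at 0) in wild-type and KO iWAT, with 1 symbol per library and bars for the mean ± SD of 3 libraries. KO replicate 2 is the lowest KO library in all 10 panels, and Dbt is the gene in which it lies among the wild-type libraries.

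Sequences upstream of 3 of the 10 genes are shown to set their start regions side by side, and any link of these letters to the levels was not tested. RefSeq windows (GRCm38.p6), each 300 bases long around a gene start, were matched for 9 of the 10 genes, with 12 windows in all; Dbt was not matched. Ivd has the most CCAAT motifs in its window, Mccc1 has them close together, and Bckdk encodes the inhibitory kinase. The stretches run from 150 to 36 bases before the gene start, 5′ to 3′ on the gene's strand, and capitals mark CCAAT or its reverse complement ATTGG.
Ivd, chr2:118861844-118861958, plus strand: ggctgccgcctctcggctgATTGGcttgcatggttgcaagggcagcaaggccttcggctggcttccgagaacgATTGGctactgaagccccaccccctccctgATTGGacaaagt
Mccc1, chr3:36000714-36000828, minus strand: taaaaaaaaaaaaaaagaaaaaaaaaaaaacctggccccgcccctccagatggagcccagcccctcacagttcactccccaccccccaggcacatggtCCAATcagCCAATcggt
Bckdk, chr7:127903923-127904037, plus strand: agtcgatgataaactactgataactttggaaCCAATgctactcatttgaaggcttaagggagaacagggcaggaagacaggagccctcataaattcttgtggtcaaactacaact
The stretch of Ivd holds 3 motifs, that of Mccc1 holds 2 and that of Bckdk holds 1. Searched on both strands, CCAAT was present in windows of 6 of the 9 matched genes (Bckdhb, Bckdk, Ivd, Mccc1, Hibadh and Pcca), and in 37.4% of all 32851 promoter windows. By window, 8 of the 12 held it. The GC box GGGCGG was present in 4 of the 12 windows and in 35.7% of all windows, and AGGTCA, the core bound by many nuclear receptors, in 4 of the 12 and in 16.3%. The NRF1 core GCATGCG was present in 1 of the 12, that of Pccb, and in 3.58% of all windows. The letters TCAAGGTCA of the estrogen-related receptor element and CACGTG of the E-box were in none of the 12 windows, and in 0.423% and 7.15% of all windows. The full NRF1 palindrome and the direct repeat bound by PPAR, which were searched before their cores, were also in none of the 12, and in 0.971% and 0.0396% of all windows. The cores lie within these longer elements, AGGTCA is also contained in TCAAGGTCA, and a match describes letters only.

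The transaminase gene Bcat2 encodes the mitochondrial enzyme that starts the pathway. Its wild-type libraries held 129, 128 and 159 CPM and its KO libraries 195, 166 and 254. KO replicate 2 was only 1.04 times wild-type replicate 3, so the groups were separate by a narrow margin. The wild-type mean was 139 ± 17.5 CPM and the KO mean 205 ± 45.1 (SD, n = 3 each). The log2 fold change was 0.57 (SE 0.187, edgeR adjusted p = 0.134). Bcat1, the cytosolic transaminase, had lower values in the KO libraries, with 9.36, 10.1 and 6.55 CPM in wild type and 5.74, 2.86 and 5.0 in KO, without overlap (log2 fold change -0.94, SE 0.300, edgeR adjusted p = 0.124). Lying below wild type in each KO library was a pattern of 13.1% of all genes tested.

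The dehydrogenase complex is built from the E1 alpha and beta subunits (Bckdha and Bckdhb), the E2 core (Dbt) and a shared E3 subunit (Dld). Bckdha had 118, 93.1 and 124 CPM in wild type and 199, 149 and 237 in KO. Every KO library was at least 1.20 times the highest wild-type library, with KO replicate 2 nearest to it. The log2 fold change was 0.80 (SE 0.199, edgeR adjusted p = 0.0771), from a mean of 112 ± 16.4 to 195 ± 44.2 CPM (SD, n = 3 each). Bckdhb, its partner, had 30.5, 26.1 and 35.3 CPM in wild type and 57.8, 38.7 and 68.5 in KO. It had the largest log2 fold change of the 10 genes, 0.84 (SE 0.217, edgeR adjusted p = 0.0842), and the groups did not overlap. Dbt was the gene of the 10 whose groups overlapped. It had 47.0, 41.1 and 68.7 CPM in wild type and 87.2, 53.7 and 88.0 in KO. Wild-type replicate 3 stood above KO replicate 2, and the spread within wild type was the widest of the 10 genes, with a coefficient of variation of 27.8%. Its log2 fold change was 0.54 (SE 0.252, edgeR adjusted p = 0.247). The E3 gene Dld, which also serves the pyruvate and oxoglutarate dehydrogenase complexes, had 159, 117 and 176 CPM in wild type and 320.1, 178 and 262 in KO (log2 fold change 0.75, SE 0.245, edgeR adjusted p = 0.130).

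Bckdk encodes the kinase that phosphorylates E1 alpha and so inactivates the complex, and its level was also higher in each KO library. The wild-type libraries held 47.0, 41.5 and 43.9 CPM and the KO libraries 65.7, 58.0 and 73.5. The KO libraries varied least of the 10 genes here (coefficient of variation 11.7%), and the lowest KO library was 1.24 times the highest wild-type one, the widest gap of the 10. The wild-type mean was 44.1 ± 2.74 CPM and the KO mean 65.7 ± 7.72 (SD, n = 3 each). The log2 fold change was 0.58 (SE 0.125, edgeR adjusted p = 0.0630, the smallest of the 10). The opposing phosphatase gene Ppm1k, whose product reactivates the complex, overlapped between the groups, with 27.5, 20.3 and 31.8 CPM in wild type and 32.2, 27.8 and 28.0 in KO (log2 fold change 0.14, SE 0.175, edgeR adjusted p = 0.632).

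The leucine branch was represented by Ivd, the isovaleryl-CoA dehydrogenase, and Mccc1, the biotin-carrying subunit of methylcrotonyl-CoA carboxylase. Ivd had 183, 166 and 229 CPM in wild type and 334, 263 and 409 in KO. The KO libraries stood above all wild-type ones, and the log2 fold change was 0.80 (SE 0.205, edgeR adjusted p = 0.0832). Mccc1 had 116, 105 and 116 CPM in wild type and 185, 130.2 and 205 in KO. Its wild-type libraries lay close together (coefficient of variation 5.89%) and its KO libraries did not (22.4%), and the log2 fold change was 0.63 (SE 0.181, edgeR adjusted p = 0.101). In the valine branch, Hibadh, the 3-hydroxyisobutyrate dehydrogenase, had 184, 165 and 189.9 CPM in wild type and 292, 221 and 328 in KO. These groups did not overlap, with a log2 fold change of 0.64 (SE 0.174, edgeR adjusted p = 0.0900).

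Valine and isoleucine carbon meets at propionyl-CoA carboxylase, made of the biotin-carrying alpha subunit Pcca and the beta subunit Pccb. Pcca had 77.7, 68.6 and 81.1 CPM in wild type and 139.8, 92.8 and 139.7 in KO. KO replicates 1 and 3 were nearly equal and KO replicate 2 lay between them and wild type (log2 fold change 0.71, SE 0.181, edgeR adjusted p = 0.0808). Pccb had 145, 122 and 158 CPM in wild type and 242, 177 and 281 in KO, again without overlap (log2 fold change 0.72, SE 0.196, edgeR adjusted p = 0.0904).

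The 10 genes shared an order of libraries. KO replicate 2 was the lowest KO library for all 10 and KO replicate 3 the highest for 9, the exception being Pcca. Among the wild-type libraries, replicate 2 was the lowest for all 10 and replicate 3 the highest for 9, the exception being Bckdk. Against the wild-type mean of each gene, KO replicate 2 stood at 1.03-fold for Dbt to 1.36-fold for Ivd, and KO replicate 3 at 1.67-fold for Bckdk to 2.23-fold for Bckdhb. The labels call the samples biological replicates without naming the animals, so the p-values measure the spread between these samples.

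Levels were compared between genes per kilobase of exon, with exon lengths from GENCODE M21 (GRCm38), since CPM alone favours long transcripts. The annotation behind the deposited counts is not stated, and these lengths are approximate. In wild type, Hibadh was highest at 98.5 ± 6.97 CPM per kilobase and stood apart from the next gene. Pccb, Bckdha, Bcat2, Ivd and Mccc1 followed at 61.0, 58.9, 55.7, 52.6 and 45.7, and neighbours in this order overlapped between libraries. Pcca at 29.2 ± 2.49 was separate from both neighbours. Bckdhb, Dbt and Bckdk were lowest at 19 ± 2.83, 15.8 ± 4.41 and 12.6 ± 0.785 CPM per kilobase, and each overlapped with the next (SD, n = 3). In KO the kinase was again lowest, at 18.8 ± 2.21, and Hibadh again highest, at 154 ± 29.8.

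Ratios between partner genes within a library do not depend on scaling between libraries, and 7 were compared. The smallest p that 3 against 3 libraries allow is 0.1 in the two-sided exact permutation test, so none could pass 0.05. For subunits of one enzyme, the log2 ratios differed between the groups by -0.25 to 0.07. The log2 ratio of Bckdhb to Bckdha was -1.95, -1.83 and -1.81 in wild type and -1.78, -1.95 and -1.79 in KO, differing by 0.03, and by -0.02 without wild-type replicate 1 (exact permutation p = 0.5; 0.583 adjusted over the 7 ratios). That of Pccb to Pcca was 0.90, 0.83 and 0.96 in wild type and 0.79, 0.94 and 1.01 in KO, differing by 0.02, and by -0.03 without KO replicate 3 (exact permutation p = 0.8; adjusted p = 0.8). Mccc2, the beta subunit that pairs with Mccc1, had a log2 ratio to Mccc1 of -0.93 ± 0.0552 in the wild-type libraries and -0.85 ± 0.0504 in KO (SD, n = 3 each; exact permutation p = 0.3; adjusted p = 0.42). Dbt to Bckdha was -1.12 ± 0.247 in wild type and -1.37 ± 0.153 in KO (exact permutation p = 0.2; adjusted p = 0.35), and the difference of -0.25 became -0.11 without wild-type replicate 3.

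The kinase was compared with both its target and its opposing phosphatase. The log2 ratio of Bckdk to Bckdha was -1.33, -1.16 and -1.50 in wild type and -1.60, -1.36 and -1.69 in KO, overlapping between groups (difference -0.22, and -0.14 without wild-type replicate 2; exact permutation p = 0.2; adjusted p = 0.35). The log2 ratio of Bckdk to Ppm1k was 0.77, 1.03 and 0.46 in wild type and 1.03, 1.06 and 1.39 in KO. The KO libraries were above all wild-type ones, narrowly so for KO replicate 1 over wild-type replicate 2 (difference 0.41, and 0.26 without wild-type replicate 3; exact permutation p = 0.1; adjusted p = 0.35). The log2 ratio of the transaminases, Bcat1 to Bcat2, was -3.78, -3.66 and -4.60 in wild type and -5.08, -5.85 and -5.66 in KO. The groups did not overlap, and the difference of -1.52 was the largest of the 7 (exact permutation p = 0.1; adjusted p = 0.35).

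**Figure D2:**
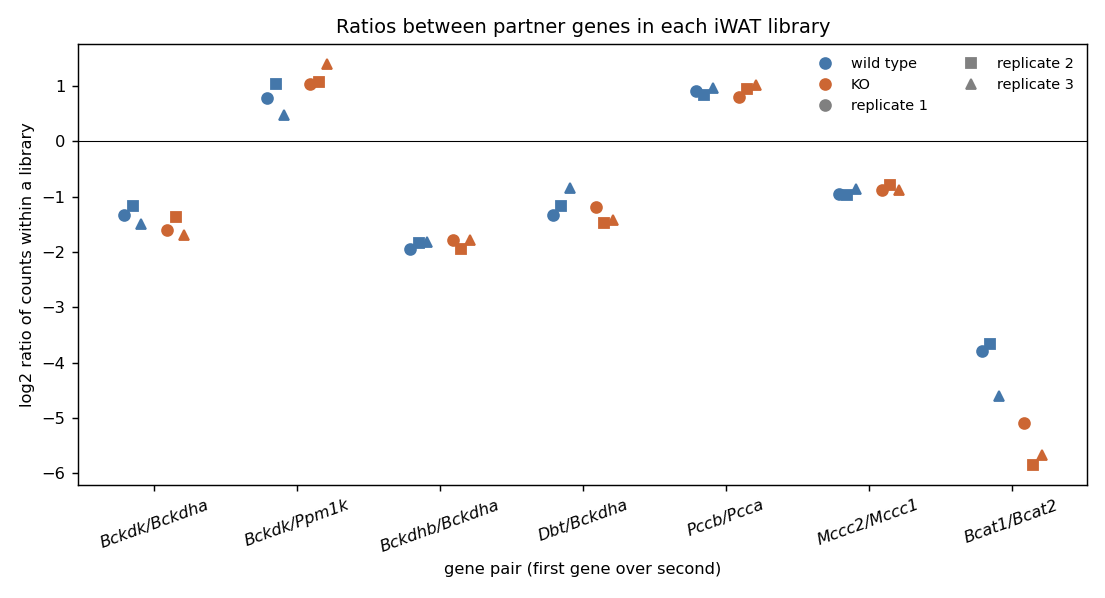
Log2 ratio of the counts of 2 partner genes within each library (vertical axis) for 7 gene pairs (horizontal axis), wild type and KO, 1 symbol per library. The wild-type and KO symbols of Bckdhb/Bckdha and Pccb/Pcca lie side by side, while those of Bcat1/Bcat2 are apart, with a difference of -1.52.

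The rest of the pathway was described from a list of 19 genes, all tested. Of these, 0 passed edgeR's test over all genes (1.03% of all genes did). An unadjusted p under 0.05 was reached by 15, Bcat1 among them, and by 22.6% of all genes in either direction. DESeq2 called 10 higher (7.34% of all genes) and limma-voom called 0 (0.0961%). The median log2 fold change was 0.56, and 18 of the 19 were positive. Each KO library lay above each wild-type library in 10, against 15.2% of all genes tested, and below in 1, Bcat1. The largest value was that of Echs1, a short-chain enoyl-CoA hydratase of valine and isoleucine breakdown and of fatty acid oxidation, with 190.0, 158 and 199 CPM in wild type and 334, 251 and 380 in KO (log2 fold change 0.82, SE 0.188, edgeR adjusted p = 0.0681). Mccc2 and Mcee, the latter a methylmalonyl-CoA epimerase that acts after propionyl-CoA carboxylase, had log2 fold changes of 0.69 and 0.71 (edgeR adjusted p = 0.0735 and 0.0742). Aldh6a1, the methylmalonate semialdehyde dehydrogenase that follows Hibadh, and Hibch, the hydrolase before Hibadh, had larger spreads and overlapped between groups, with log2 fold changes of 0.77 (SE 0.273) and 0.76 (SE 0.296). Oxct1, the ketone body transferase, was nearest to no difference, at 0.13 (SE 0.156, edgeR adjusted p = 0.619).

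**Figure D3:**
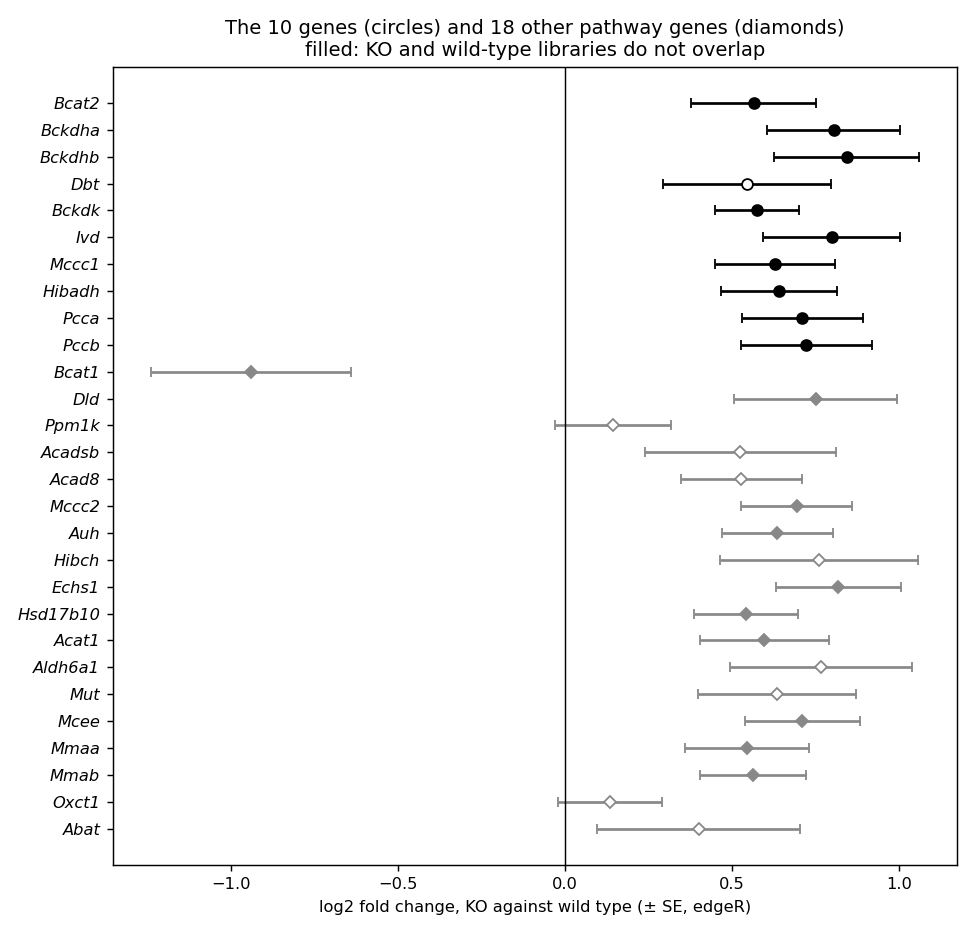
Log2 fold change of KO against wild type with its standard error (horizontal axis, edgeR) for the 10 genes (circles) and 18 other pathway genes (diamonds), filled where the libraries of the groups do not overlap. Bcat1 at -0.94 is the 1 negative value, and Ppm1k and Oxct1 lie nearest to 0.

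Among amino acid carriers, 2 of 7 tested had a positive log2 fold change. Of 8 listed, 7 were tested and 0 passed in edgeR, with 4 at an unadjusted p under 0.05 (22.6% of all genes in either direction), 1 called higher by DESeq2 (7.34%) and 0 called by limma-voom; the median log2 fold change was -0.41. Slc25a44, the mitochondrial carrier that brings them to the breakdown enzymes, had 62.8, 57.4 and 62.7 CPM in wild type and 99.0, 73.5 and 106 in KO (log2 fold change 0.61, SE 0.155, edgeR adjusted p = 0.0828). The plasma membrane carrier Slc43a2 had 76.0, 86.3 and 63.6 CPM in wild type and 49.5, 58.6 and 51.6 in KO (log2 fold change -0.50, SE 0.144, edgeR adjusted p = 0.101). Slc7a5, the large neutral amino acid transporter, overlapped between groups (log2 fold change -0.79, SE 0.318, edgeR adjusted p = 0.195). Slc38a2, another amino acid carrier, had 193, 163 and 163 CPM in wild type and 136, 138 and 118 in KO (log2 fold change -0.41, SE 0.135, edgeR adjusted p = 0.135). Slc25a44 was thus above all wild-type libraries in each KO library, a pattern of 15.2% of all genes tested. Slc43a2 and Slc38a2 were below them, a pattern of 13.1%.

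Among 5 transcription regulators linked to mitochondrial and amino acid metabolism, 0 passed in edgeR, 3 had an unadjusted p under 0.05 (22.6% of all genes), DESeq2 called 2 higher (7.34%) and limma-voom called 0. Klf15, known to promote branched-chain amino acid breakdown, had 40.9, 37.1 and 49.4 CPM in wild type and 89.9, 61.6 and 106 in KO. The KO libraries stood above all wild-type ones (log2 fold change 1.02, SE 0.211, edgeR adjusted p = 0.0625). Esrra, the estrogen-related receptor alpha, had 37.4, 35.4 and 35.5 CPM in wild type and 45.3, 48.1 and 50.8 in KO (log2 fold change 0.41, SE 0.104, edgeR adjusted p = 0.0801). Ppargc1a, Ppara and Pparg overlapped between groups, with log2 fold changes of 0.91 (SE 0.492), 0.86 (SE 0.316) and 0.38 (SE 0.190). Their edgeR adjusted p was 0.307, 0.168 and 0.273.

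Adipocyte transcripts were also at higher levels in the KO libraries. All 12 listed adipocyte markers were detected in every group and had positive log2 fold changes, with a median of 0.77, and 0 passed in edgeR, 10 had an unadjusted p under 0.05 (22.6% of all genes), DESeq2 called 11 higher (7.34%) and limma-voom 0. Their summed level was 19941 to 26524 CPM in wild type and 26892 to 47100 in KO. Relative to the wild-type mean, the mean log2 level of the adipocyte markers was 0.83, 0.26 and 1.13 in KO replicates 1, 2 and 3, and that of the 10 genes was 0.75, 0.31 and 0.94. With the adipocyte mean subtracted in each library, the KO libraries overlapped the wild-type ones for all 10 genes, and the mean differences lay between -0.20 for Dbt and 0.07 for Bckdhb. The overlap was often partial. For Bcat2, Bckdk, Mccc1 and Hibadh, KO replicates 1 and 3 lay below all wild-type libraries and KO replicate 2 did not. For Dbt, KO replicates 2 and 3 lay below all wild-type libraries, and for Bckdhb, KO replicates 1 and 2 lay above them. KO replicate 2 also lay above all wild-type libraries for Bckdha, Bckdk, Ivd and Pccb. For Pcca and Pccb, KO replicate 3 lay below them, and for Pcca, KO replicate 1 lay just above (0.055 against 0.051). In bulk tissue, more adipocytes and more RNA per adipocyte cannot be told apart, and the part of either in the values of the 10 genes was not tested.

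**Figure D4:**
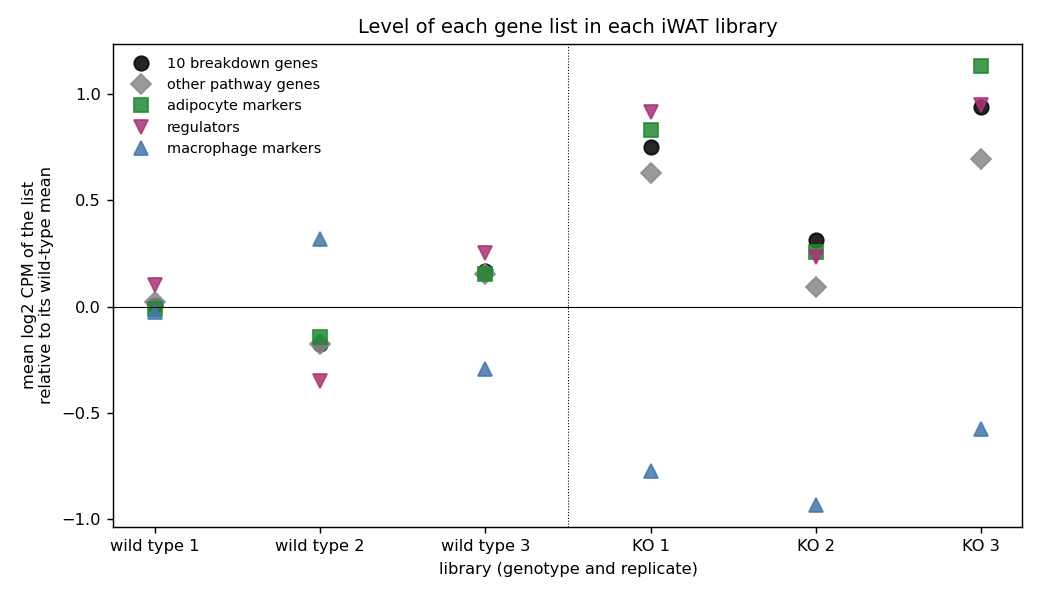
Mean log2 CPM of each gene list relative to its wild-type mean (vertical axis) in each of the 6 iWAT libraries (horizontal axis). In KO replicate 2 the 10 breakdown genes are at 0.31, the adipocyte markers at 0.26, the regulators at 0.23 and the other pathway genes at 0.09. Each of these lists is higher in KO replicates 1 and 3. The macrophage markers lie below 0 in all KO libraries.

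Markers of brown and beige adipocytes, the heat-producing fat cells, summed to 68.1 to 189 CPM in wild type and 187 to 408 in KO. All 7 had positive log2 fold changes, with a median of 1.11; edgeR called 0, with 3 at an unadjusted p under 0.05 (22.6% of all genes), DESeq2 3 higher (7.34% of all genes) and limma-voom 0. Their mean log2 level relative to wild type was 1.56, 0.66 and 1.99 in KO replicates 1, 2 and 3, the same order of libraries as for 9 of the 10 genes. In the wild-type libraries it was 0.21, -0.73 and 0.53. Cidea, a lipid droplet protein, had 103, 44.5 and 138 CPM in wild type and 192, 145 and 280.3 in KO, without overlap. Ucp1, the uncoupling protein of brown fat, had 28.1, 5.598 and 17.6 CPM in wild type and 46.2, 10.98 and 59.5 in KO, with overlap. Endothelial markers summed to 879 to 946 CPM in wild type and 1061 to 1285 in KO, and DESeq2 called 2 of 6 higher. Progenitor markers summed to 7131 to 8798 CPM in wild type and 4104 to 7686 in KO, and DESeq2 called 2 of 8 lower (3.6% of all genes). In both lists edgeR and limma-voom called 0, with 3 and 4 genes at an unadjusted p under 0.05 in edgeR. The part of these cell types in the values of the 10 genes was not tested.

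Transcripts of skeletal muscle, which also breaks down branched-chain amino acids, were at higher levels in the KO libraries. Of 12 listed markers, 11 were tested and 10 rose in edgeR, where 0.865% of all genes were called higher; DESeq2 called 11 higher (7.34%) and limma-voom 1. Their summed level was 11.2 to 17.4 CPM in wild type and 4168, 689 and 3824 in KO replicates 1, 2 and 3, and Myh4, a fast myosin, had 2, 1 and 0 counts in wild type against 16392, 3038 and 11237. KO replicate 2 thus had the lowest muscle sum of the KO libraries and the lowest level of each of the 10 genes. KO replicate 2 also had the lowest KO sum of the adipocyte and of the brown and beige markers. The part of muscle RNA in the values of the 10 genes was not tested. Macrophage markers, whose summed level was 2667 to 3851 CPM in wild type and 1914 to 2143 in KO, had negative log2 fold changes in 7 of 8, with 0 past the test in edgeR, 7 at an unadjusted p under 0.05 (22.6% of all genes), 4 called lower by DESeq2 (3.6%) and 0 by limma-voom. B cell markers, at 1006 to 1147 CPM in wild type, were at 526, 1180 and 266 in KO replicates 1, 2 and 3. KO replicate 2 was thus just above the wild-type range of this list, and KO replicates 1 and 3 were below it. Without KO replicate 2, edgeR called 12 of 12 adipocyte, 3 of 7 brown and beige and 3 of 6 endothelial markers higher (14.5% of all genes). It then called 3 of 8 macrophage, 6 of 6 B cell and 5 of 6 T cell markers lower (10.9% of all genes). The progenitor list then had 1 gene called higher and 1 lower.

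The genes most like the 10 across the 6 libraries were chosen by the Pearson correlation of log2 CPM with the mean of their standardised levels. They were Gstz1, Lpin1, Adck1, Csad, Peli2 and Cpt2, each with a correlation of 0.998 to 0.999 over 6 libraries. A correlation does not measure the size of a difference. The log2 fold changes of the 6 ran from 0.30 for Adck1 (edgeR adjusted p = 0.240) to 1.17 for Lpin1 (edgeR adjusted p = 0.0665). Of 13320 candidates, 1696 had a correlation above 0.9, so closeness to this pattern was common. Gstz1, a tyrosine breakdown enzyme, had 311, 275 and 353 CPM in wild type and 606, 417 and 709 in KO. Lpin1, a phosphatidate phosphatase of triglyceride synthesis, had 246, 194 and 278 CPM in wild type and 574, 353 and 692 in KO. Cpt2, a mitochondrial carnitine palmitoyltransferase, had 89.1, 78.5 and 97.0 CPM in wild type and 159.9, 116 and 191 in KO.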

How the data were processed

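Poly(A) RNA from iWAT was sequenced after the Illumina Stranded mRNA Prep Ligation kit, per the labels' protocols. The authors deposited 1 table of estimated counts per gene, with 1 unscaled column per library (9.53% to 11.1% of values not whole); for the whole series, the submitters' processing notes name fastp, featureCounts, GRCm38 and GRCm39, without saying what was applied to this table, and its strand setting is not stated. Exons of Bcat2 and Mccc1 overlap antisense genes in GENCODE M21, so their values are uncertain to that extent. The liver samples are not analysed here.

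Estimated counts were rounded to whole numbers. Symbols from GENCODE M21 matched 26372 of 33200 identifiers (79.4%). Genes were tested with glmQLFTest of edgeR 4.0.16 in R 4.3.3 (quasi-likelihood, TMM, filterByExpr, robust, two-sided), with Benjamini-Hochberg adjustment over all 16656 genes tested. A standard error is the log2 fold change divided by the square root of F. A single count was worth 0.0466 to 0.0574 CPM. Partner ratios used counts plus 0.5 and two-sided exact permutation tests (scipy 1.17.1). Alternatives were DESeq2 1.42.0, limma-voom (limma 3.58.1), other size factors, filters and thresholds, leaving out each library, and a replicate block. Scripts were tested on simulated counts. The members, lists, tests and alternatives were chosen with earlier results of these data known; the subtraction of the adipocyte level and the promoter motifs were chosen after the values were seen. Named genes were the 10 members, Nrep, any tested gene of the pathway, carrier and regulator lists, the 2 most abundant of each marker list, and the 6 genes of at least 2 CPM closest in pattern. Lists of T cell and epithelial markers had 0 members called in edgeR, DESeq2 and limma-voom with all 6 libraries. For 1 of the 19 other pathway genes, counted in the totals, no value is reported here.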

Additional observations from a re-analysis of the deposited data

How the results depend on the processing

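The count of the 10 genes past the test was 0 in edgeR, where 1.03% of all genes passed in either direction. It became 9 in DESeq2, where 7.34% of all genes were called higher, and 9 with no filter on low counts (2.8%). At an adjusted p of 0.10 it was 7 (5.52%). It stayed at 0 in limma-voom, with RLE size factors, library totals alone, a filter of 1 CPM in 3 libraries or non-robust estimation. Leaving out 1 library gave 0 to 10, with 10 only without KO replicate 2 (14.5% of all genes called higher). For the 19 other pathway genes the count of 0 became 10 in DESeq2 (7.34% of all genes called higher). With no filter it was 9 (8 higher, 1 lower), against 4.14% of all genes in either direction. At an adjusted p of 0.10 it was 6 (5.52% of all genes higher). It was 0 to 15 when 1 library was left out, with 15 without KO replicate 2 (14.5% of all genes higher). Over all 16656 genes tested, the count of 171 (144 higher, 27 lower) became 1823 in DESeq2 and 16 in limma-voom. It became 1370 of 33094 genes with no filter, and 1378 at an adjusted p of 0.10. Leaving out 1 library gave 1 to 4221; the cause was not tested. Scaling by library totals alone split the calls into 129 higher and 49 lower, with a median log2 fold change over all genes of -0.19. With the replicate number as a block, 1225 genes passed (7.35%), with 4.74% of all genes called higher. In that fit 7 of the 10 and 7 of the other 19 passed, all of them higher in KO. Same-numbered libraries had correlations of deviations from their group means of -0.003, 0.183 and 0.0996, not every library correlated best with its own number, and so the numbers were not taken to pair the samples. All 10 genes kept a positive sign in the 14 alternatives fitted to each, with log2 fold changes from 0.38 (Bcat2) to 1.10 (Bckdhb). These fits reuse the same libraries, so this is not independent support. With 1 library left out, the KO minus wild-type difference in log2 ratio lay between -0.35 and -0.11 for Dbt to Bckdha, 0.26 and 0.54 for Bckdk to Ppm1k, -0.31 and -0.14 for Bckdk to Bckdha, and -1.81 and -1.34 for Bcat1 to Bcat2. It took both signs for Bckdhb to Bckdha (-0.02 to 0.08) and Pccb to Pcca (-0.03 to 0.08). Whether library number or depth limits the precision was not tested.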
